A study of Mus musculus with 28 samples.

Results

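Lysosomal cathepsin genes and Cst3, the gene of the cathepsin inhibitor cystatin C, were followed in RNA-sequencing counts from mouse tail tendon fascicles. The group held 10 genes of the 25719 in the count table: Ctsb, Ctsc, Ctsh, Ctsk, Ctsl, Ctss and Ctsz, which encode cysteine proteases, Ctsd, which encodes an aspartic protease, Ctsa, which encodes a serine carboxypeptidase, and Cst3. They were chosen by name for their shared role, and the measured value used in the choice was the lower Ctsc level of early transgenic mice against controls. The early genotype difference is therefore described here, and nothing is read from a test of it. All 10 genes passed the filter on low counts in both cohorts.

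In Fosl-2(Tg) mice, a vector with murine Fosl2 (an AP-1 transcription factor gene) is driven by the promoter of H2Kb, an MHC class I gene, inserted at random and linked to eGFP, so expression is not limited to tendon cells. Controls (WT) were non-transgenic mice of the same breeding, and the labels give the background of all mice as C57BL/6. The early cohort held 7 WT and 8 Tg mice, aged 6 to 8 weeks and all male. The established cohort held 6 WT and 7 Tg mice older than 14 weeks, of which 11 of 13 were female, with 1 male (replicate 5) in each genotype. Each library came from 1 mouse and from a tissue homogenate. Stage and sex therefore cannot be told apart between cohorts, and in such bulk samples fewer cells of a type cannot be told apart from less RNA per cell.

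Library totals ranged from 9645598 to 66894396 counts, and the 10 genes together took between 0.161% and 0.343% of a library. Fosl2 itself averaged 88.7 ± 26.1 CPM (counts scaled to a common library size; mean ± SD) in early WT, 102 ± 40.5 in early Tg, 111 ± 32.7 in established WT and 143 ± 15.8 in established Tg mice. The 9 tendon fibroblast markers examined (among them Col1a1, Col1a2, Scx and Tnmd) summed to 92349 to 611435 CPM in the early mice and established WT mice, whereas the established Tg mice ranged from 3529 to 74834 CPM and did not overlap with any other group. Skeletal muscle markers varied within every group, from 51.4 to 20607 CPM in sum. The 4 libraries with the lowest library numbers in the labels, early WT replicates 1 to 3 and early Tg replicate 1, had the 4 lowest early levels of Ctsh. Calls among the 10 genes that use early mice were therefore also made without these 4, a choice made after the values were seen. The ratios, correlations and marker lists below include them.

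Cathepsins are made as inactive precursors, sorted to lysosomes mainly by mannose 6-phosphate receptors, and activated at acidic pH. There they digest proteins delivered by endocytosis and autophagy, and several are also secreted. Cathepsin K cleaves native triple-helical collagen and is the main collagenase of osteoclasts, but fibroblasts make it too. Cathepsin S works at neutral pH as well and trims the invariant chain of MHC class II in antigen-presenting cells. Cystatin C is a small secreted protein that binds the active site of cysteine cathepsins.

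Ctsk (ENSMUSG00000028111, chr3:95406178-95416732, plus strand, GRCm39) and Ctss (ENSMUSG00000038642, chr3:95433963-95463717, plus strand) are neighbours, separated by 17230 bases. The 250 bases before the start of each gene are shown because the genotype differences of this pair ran in opposite directions in the established cohort. The promoter of Ctsd (ENSMUSG00000007891, chr7:141929646-141941775, minus strand) is shown as the one with 2 copies of CACGTG, the E-box bound by lysosomal regulators of the MiT/TFE family. Promoter sequences are from RefSeq on GRCm38.p6, another build than that of the counts, and are written 5′ to 3′ on the strand of the gene, at chr3:95498960-95499209 for Ctsk, chr3:95526536-95526785 for Ctss and chr7:142387828-142388077 for Ctsd. Capitals mark GAGGAA on either strand, the core of sites for ETS factors such as PU.1, in Ctsk and Ctss, and CACGTG in Ctsd.
Ctsk: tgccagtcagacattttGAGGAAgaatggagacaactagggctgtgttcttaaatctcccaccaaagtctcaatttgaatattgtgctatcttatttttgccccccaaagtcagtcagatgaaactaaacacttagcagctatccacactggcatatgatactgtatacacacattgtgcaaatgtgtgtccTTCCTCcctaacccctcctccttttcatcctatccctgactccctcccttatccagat
Ctss: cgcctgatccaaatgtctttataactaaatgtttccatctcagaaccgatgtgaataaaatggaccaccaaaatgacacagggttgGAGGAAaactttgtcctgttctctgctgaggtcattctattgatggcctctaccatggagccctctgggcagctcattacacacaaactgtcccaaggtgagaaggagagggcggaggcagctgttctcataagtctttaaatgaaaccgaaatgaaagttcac
Ctsd: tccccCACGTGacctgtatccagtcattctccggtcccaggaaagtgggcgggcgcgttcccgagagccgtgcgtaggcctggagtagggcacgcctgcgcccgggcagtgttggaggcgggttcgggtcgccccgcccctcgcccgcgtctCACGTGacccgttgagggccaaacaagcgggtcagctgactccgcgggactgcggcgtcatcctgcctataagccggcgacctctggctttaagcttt

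The RefSeq table held promoters for 8 of the 10 genes, not for Ctsb and Ctsh. GAGGAA was present before Cst3, Ctsc, Ctsk and Ctss, that is in 4 of 8 genes, against 23.3% of 32851 mouse promoter windows of this length. CACGTG was found before Ctsa, Ctsd and Ctsl, in 3 of 8 genes against 6.02% of all windows. The AP-1 element TGANTCA, which takes in both usual forms of the site, was found in 0 of 8 against 6.75%. Both strands were searched, and no hit overlapped another. These matches describe the letters of the window only.

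Levels between genes can be compared only per length. Length here is the union of all annotated exons of a gene, from 1808 bases (Cst3) to 7674 bases (Ctsb). Which transcripts were present was not measured, so the order of genes holds for this length only. On the scale of CPM per kb of exon Cst3 had the highest level in every group. Its mean ran from 290 ± 68.6 in early Tg to 481 ± 93.4 in established Tg mice. Ctsk came next in both early groups (99.4 ± 29.1 in WT and 112 ± 25.2 in Tg) and in established WT (73.5 ± 13.3), followed by Ctsd at 79.4 ± 10.7, 92.9 ± 8.12 and 68.4 ± 9.71 in the same groups. These 2 genes lay within each other's spread in those groups. In established Tg mice Ctsd (62.7 ± 9.51 CPM per kb) and Ctsb (52.5 ± 17.5) stood next to Cst3, and Ctsk followed at 32.1 ± 19.5, within the spread of Ctsl at 29.8 ± 9.68. Ctsc had the lowest level per kb in early Tg (5.50 ± 0.551), early WT (9.82 ± 1.87) and established WT mice (6.19 ± 1.66), whereas Ctsh was lowest in established Tg mice (5.00 ± 1.92) and overlapped with Ctsc there (6.39 ± 1.95).

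**Figure D1:**
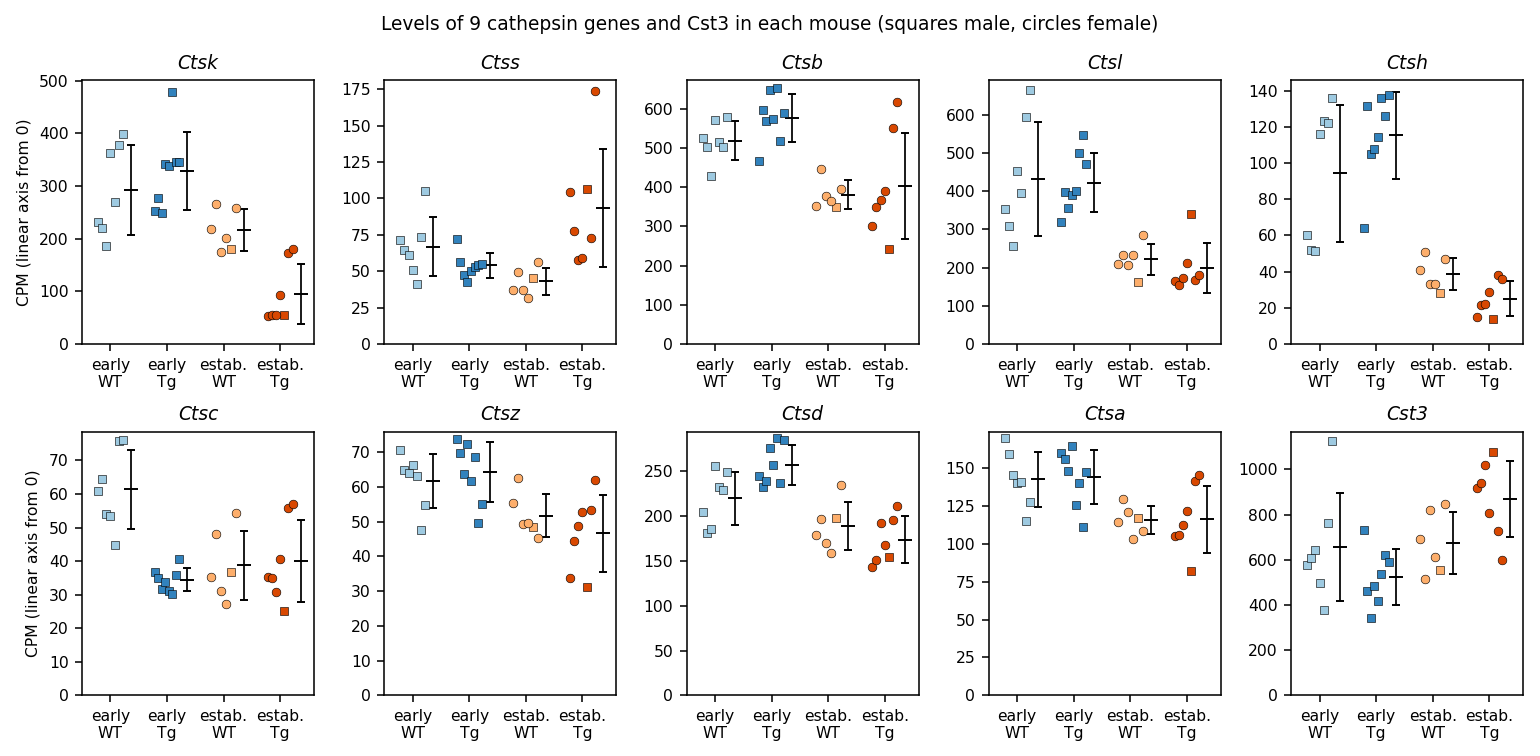
CPM of each gene in each of the 28 mice on linear axes from 0, by cohort and genotype. Each point is 1 mouse, squares are males and circles females, and the bar beside each group is the mean ± SD. In established Tg mice Ctss lay above all 6 WT mice, from 57.9 to 174 CPM, and Ctsk lay below all of them in 6 of 7 mice.

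The established cohort asks which of these genes differ once the tendon phenotype is present. Ctss was higher and Ctsk lower in established Tg than in WT tendons, and the other 8 genes did not pass the threshold, an adjusted p (FDR) of at most 0.05 over all 15862 genes tested. Of all genes tested 6.51% passed, 3.14% higher and 3.37% lower, against 2 of 10 here, 1 in each direction. The median log2 fold change of the 10 genes was -0.053, against 0.0054 over all genes tested.

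Ctss ranged from 31.3 to 56.5 CPM in the 6 established WT mice, with a median of 41.4. In the 7 Tg mice it ranged from 57.9 to 174 CPM, with a median of 77.6. Every Tg mouse was above every WT mouse, a separation in this direction shown by 1 of the 10 genes and by 1.48% of all genes tested. The highest Tg value, in replicate 7, was well above the next at 106 CPM. The log2 fold change was 1.13 (SE 0.25, 95% confidence interval 0.59 to 1.66, FDR = 0.0228), which is 2.19-fold.

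Ctsk ranged from 174 to 266 CPM in established WT mice, with a median of 210.0. In Tg mice the lowest level was 52.7, the median 55.4 and the highest 179 CPM. Replicates 1, 2, 3 and 5 lay between 52.7 and 55.4 CPM and replicate 4 at 92.5, whereas replicates 6 and 7 stood at 173 and 179 CPM, beside the lowest WT mice. The log2 fold change was -1.19 (SE 0.32, interval -1.87 to -0.50, FDR = 0.0442), with 7 of 7 Tg mice below the WT mean.

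Both calls stand near the threshold. Without the 2 established males neither gene passed (Ctsk -1.14, FDR = 0.0844; Ctss 1.11, FDR = 0.0544), at nearly the same fold changes. When single mice were left out, Ctss passed in 11 of 13 fits, being lost without WT replicate 1 (FDR = 0.0545) or WT replicate 4 (0.0515), and Ctsk passed in 2 of 13, those without Tg replicate 6 or 7, with a log2 fold change between -1.43 and -1.08 in all.

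The 2 Tg mice with the highest Ctsk differed in other respects too. Replicates 6 and 7 also had the highest Ctsb (551 and 618 CPM, against 243 to 389 in the other 5), Ctsc (55.8 and 57.1, against 25.2 to 40.5) and Ctsa (141 and 145, against 82.0 to 121). They had the lowest Cst3, 727 and 598 CPM against 807 to 1077. MHC class II genes summed to 380 and 594 CPM in these mice, against 19.3 to 54.9 CPM in the other Tg and 22.6 to 44.5 CPM in the WT mice. Their tendon fibroblast marker sums, 63012 and 40466 CPM, were below that of replicate 4 (74834 CPM) and above those of the other 4 Tg mice. The part of these differences in the levels of Ctsk and Ctss was not tested.

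The ratio of Ctsk to Ctss, as CPM over CPM in the same library, brought the pair together. It ranged from 3.94 to 6.43 in established WT mice, with a mean of 5.14 ± 0.914, and from 0.506 to 2.36 in Tg mice, with a mean of 1.09 ± 0.669. The ranges did not overlap, and in 4 of 7 Tg mice Ctss had more counts than Ctsk. These counts are not scaled by exon length. Per kb of exon, Ctsk averaged 32.1 ± 19.5 CPM and Ctss 17.6 ± 7.65 CPM in established Tg mice. This holds for the union of annotated exons, 2944 bases for Ctsk and 5305 for Ctss. Early mice had ratios of 4.62 ± 1.67 in WT and 6.25 ± 1.74 in Tg, with overlapping ranges. The 4 lowest-numbered libraries, included here, had the lowest early ratios, 3.07 to 3.51. These ratios repeat the counts tested above and were not tested again.

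**Figure D2:**
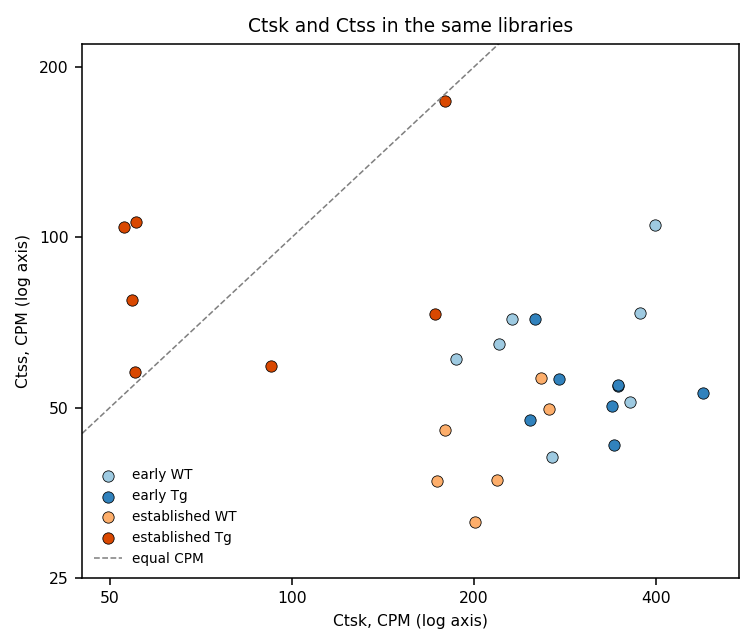
CPM of Ctsk (x) against CPM of Ctss (y), both on log axes, with 1 point per mouse colored by group and a dashed line of equal CPM. The 7 established Tg mice lie to the upper left of the other mice, with Ctsk to Ctss ratios of 0.506 to 2.36, and 4 of them lie above the line. The CPM are not scaled by exon length, so the line does not mark equal levels per kb.

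Among the other cysteine cathepsins, Ctsh (ENSMUSG00000032359, chr9:89936205-89958148), an aminopeptidase, had the next largest difference. It ranged from 28.2 to 51.0 CPM in established WT mice (median 37.1) and from 14.001 to 38.2 CPM in Tg mice (median 22.1). All 7 Tg mice were below the WT mean, but the groups overlapped and the log2 fold change of -0.63 (SE 0.24, interval -1.13 to -0.12) did not pass (FDR = 0.113). With the replicate number as a block it was -0.80 (FDR = 0.0412), although same-numbered established mice were not taken as pairs.

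Ctsb (ENSMUSG00000021939, chr14:63358384-63383372), an abundant endopeptidase and exopeptidase, averaged 381 ± 37.0 CPM in established WT and 403 ± 134 CPM in Tg mice. Its log2 fold change was 0.087 (interval -0.32 to 0.49, FDR = 0.796), and the Tg mice spread more widely, from the male at 243 CPM to replicate 7 at 618 CPM. Ctsl (ENSMUSG00000021477, chr13:64507151-64518704), a broad endopeptidase, averaged 222 ± 40.1 and 199 ± 64.6 CPM, a log2 fold change of -0.15 (interval -0.55 to 0.25, FDR = 0.625). Its highest Tg value, 340 CPM, was that of the male, against 155 to 211 CPM in the 6 females.

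Ctsc (ENSMUSG00000030560, chr7:87927092-87960096), which activates serine proteases of neutrophils, mast cells and cytotoxic lymphocytes, averaged 38.7 ± 10.4 CPM in established WT and 40.0 ± 12.2 CPM in Tg mice. The log2 fold change was 0.053 (interval -0.39 to 0.50, FDR = 0.893), and the ranges of 27.3 to 54.3 and 25.2 to 57.1 CPM nearly coincided. Transcripts of its substrates were close to absent. The 10 protease genes examined, among them Elane, Prtn3, Gzma, Gzmb and Cma1, were each under 1 CPM in all 28 libraries and summed to at most 0.753 CPM. The proteins were not measured. Ctsz (ENSMUSG00000016256, chr2:174267304-174280832), a carboxypeptidase, averaged 51.7 ± 6.23 and 46.6 ± 11.05 CPM, a log2 fold change of -0.14 (interval -0.46 to 0.17, FDR = 0.550).

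Ctsd, the main aspartic protease of lysosomes, averaged 189 ± 26.9 CPM in established WT and 173 ± 26.3 CPM in Tg mice (log2 fold change -0.12, interval -0.37 to 0.13, FDR = 0.526). Ctsa (ENSMUSG00000017760, chr2:164674778-164682961), which also protects lysosomal galactosidase and sialidase, averaged 115 ± 9.29 and 116 ± 22.1 CPM (0.015, interval -0.24 to 0.27, FDR = 0.948). Each of these intervals leaves out a doubling or a halving of the level. Counts of Ctsa, Ctsb and Ctsz may include reads of genes that overlap them on the other strand (Neurl2 and Pltp, Fdft1, and Nelfcd), and those of Ctsd are uncertain because Gm49369 overlaps it on the same strand.

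Cst3 (ENSMUSG00000027447, chr2:148713635-148717887) ranged from 517 to 846 CPM in established WT mice (median 653) and from 598 to 1077 CPM in Tg mice (median 918). In 6 of 7 Tg mice the level was above the WT mean, and 4 were above every WT mouse. The log2 fold change of 0.37 (SE 0.16, interval 0.023 to 0.72) did not pass over all genes (FDR = 0.165). Set against the sum of the 7 cysteine cathepsins in the same library, Cst3 made a ratio of 0.688 ± 0.150 in WT and 1.04 ± 0.366 in Tg mice, with the Tg values between 0.457 and 1.35. The 2 Tg mice with the most Ctsk, replicates 6 and 7, held the lowest ratios of that group, 0.653 and 0.457.

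**Figure D3:**
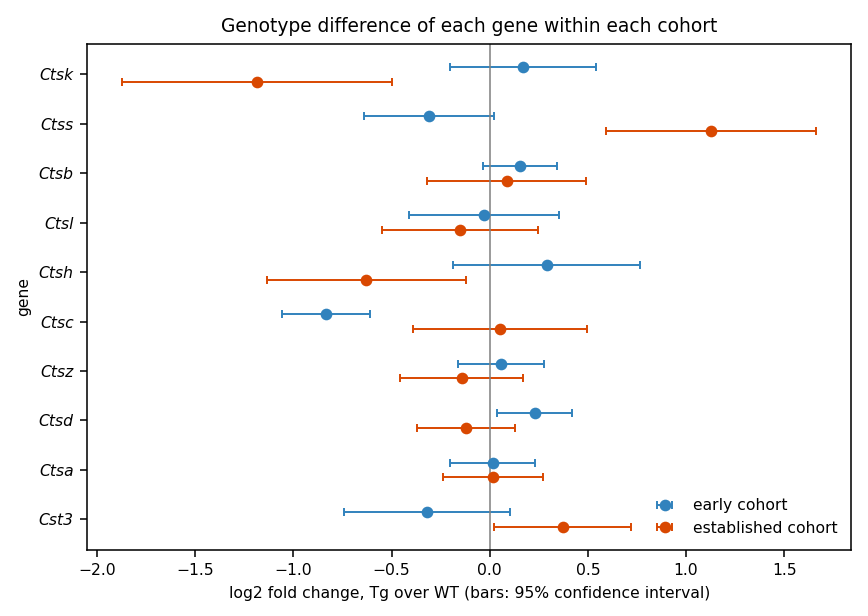
Log2 fold change of Tg over WT (x) for each gene (rows), with 95% confidence intervals, in the early cohort (blue) and the established cohort (orange). Ctss and Ctsk moved apart in the established cohort, at 1.13 and -1.19, whereas the largest early value was that of Ctsc at -0.84.

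In the early cohort the one clear difference was that of Ctsc, which the choice of genes had named. It ranged from 44.9 to 76.0 CPM in the 7 WT mice (median 60.9) and from 30.2 to 40.7 CPM in the 8 Tg mice (median 34.3). Every early Tg mouse was below every WT mouse, with a log2 fold change of -0.84 (SE 0.11), or 0.560-fold. Across all genes 0.033% passed as lower in Tg early and 0.0462% separated in this direction. Ctsc is among these by the choice of genes, so nothing is read from either share. Without the 4 lowest-numbered libraries the value was -0.87 and the remaining groups still did not overlap. Over all genes 0 of 15560 then passed with edgeR, where 602 had an unadjusted p under 0.05. DESeq2 was not run on this subset. The early Tg level of 34.4 ± 3.45 CPM lay close to that of both established groups.

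The other 9 genes had early log2 fold changes between -0.32 (Cst3) and 0.29 (Ctsh), with overlapping groups. Ctss was at 66.9 ± 20.4 CPM in early WT and 53.9 ± 8.47 CPM in early Tg mice, a log2 fold change of -0.31, and Ctsk was at 293 ± 85.7 and 329 ± 74.1 CPM, a log2 fold change of 0.17. Ctsd was at 220 ± 29.6 and 257 ± 22.5 CPM (0.23), with 8 of 8 Tg mice above the WT mean. Cst3 ranged from 378 to 1128 CPM in early WT (median 607) and from 342 to 734 CPM in early Tg mice (median 509), with 7 of 8 Tg mice below the WT mean. Ctsb averaged 519 ± 50.1 and 577 ± 62.1 CPM (0.15), Ctsl 432 ± 150.1 and 423 ± 76.7 (-0.029), Ctsa 142 ± 18.3 and 144 ± 17.96 (0.015), and Ctsz 61.7 ± 7.78 and 64.4 ± 8.58 (0.060). The early value of Ctsh moved with the libraries that stood apart: WT replicates 1 to 3 had 51.1 to 60.3 CPM and Tg replicate 1 had 63.9, while the other 4 WT mice had 116 to 136 and the other 7 Tg mice 105 to 138 CPM. Without those 4 libraries the early log2 fold change of Ctsh was -0.0082, and that of Ctsk was -0.040.

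The change of the genotype difference between cohorts was tested as an interaction over all 28 libraries, and 7.43% of all genes passed. Ctss differed by 1.43 on the log2 scale (established minus early, SE 0.30, interval 0.83 to 2.04, FDR = 0.00693) and Ctsk by -1.36 (SE 0.37, interval -2.12 to -0.60, FDR = 0.0265). Ctsc differed by 0.88, given without a test because its early value is part of it. The other 7 genes did not pass, the nearest being Ctsh at -0.92 (FDR = 0.0958) and Cst3 at 0.69 (FDR = 0.113). Ctsh passed under the replicate block (-1.11, FDR = 0.0218), which also blocks established mice by numbers that were not taken to pair them. Ctss and Ctsk passed in 28 of 28 fits that left out 1 library each, with the highest FDR at 0.0144 and 0.0484. Without the 4 lowest-numbered libraries Ctss still passed (1.52, FDR = 0.0295), and Ctsk did not (-1.15, FDR = 0.138).

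Between the cohorts, 2 of the 9 genes other than Ctsc passed as lower in the older WT mice, and 7 in the older Tg mice. In WT mice Ctsh (log2 fold change -1.28, FDR = 0.00492) and Ctsl (-0.96, FDR = 0.00641) were lower in the established than the early cohort and passed in 28 of 28 fits without 1 library, 2 of the 9 genes other than Ctsc, where 3.48% of all genes passed as lower. The value of Ctsc was -0.67, given without a test because it contains the early WT level used in the choice of genes. Ctsk (-0.44, FDR = 0.352) and Cst3 (0.040, FDR = 0.930) did not pass in WT.

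In Tg mice 7 of the 9 genes other than Ctsc were lower and 2 were higher in the established cohort, against 22% and 25.8% of all genes. Ctsh (-2.20, FDR = 2.29e-07), Ctsk (-1.80, FDR = 5.11e-06) and Ctsl (-1.09, FDR = 4.38e-05) fell furthest, and Ctsd (-0.57), Ctsb (-0.52), Ctsz (-0.46) and Ctsa (-0.31) fell by less. Ctss rose (0.79, FDR = 0.00210), as did Cst3 (0.73, FDR = 0.00213). The value of Ctsc was 0.22, given without a test because it contains the early Tg level used in the choice of genes. The same 9 genes passed without the 4 lowest-numbered libraries and without the 2 established males. The WT and Tg stage values share no mice, but both carry the change of sex with stage.

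Other genes of the pathway were described by lists of 198 symbols, of which 194 were in the table, with the established genotype difference in each. Over all 15862 genes tested there, 4213 had an unadjusted p under 0.05, in either direction. Of the other cathepsins only 4 had enough counts to be tested, and 0 passed with edgeR or DESeq2 (0 also at an unadjusted p under 0.05), at log2 fold changes from -0.33 (Ctsf) to 0.46 (Ctsw), with Lgmn, an asparaginyl endopeptidase that processes cathepsins, at 0.082. The remaining 11 of that list were under 1 CPM in every library. Among other cystatins, Cstb, Cst6 and Cst7 were tested and 0 of 3 passed with edgeR or DESeq2 (0 also at an unadjusted p under 0.05), and 21 of 26 were under 1 CPM throughout, and no member of that list reached 15 CPM in any mouse.

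Of 27 other lysosomal hydrolases, 2 were lower in established Tg mice and 0 were higher (3 with an unadjusted p under 0.05, and 2 with DESeq2), with a list median of -0.072. These were Fuca1, an alpha-fucosidase (-0.60, FDR = 0.0133; 124 ± 8.14 CPM in WT and 81.9 ± 14.2 in Tg), and Arsb, a sulfatase of dermatan sulfate (-0.76, FDR = 0.0273). In the list of sorting and regulatory genes 2 of 16 were higher and 1 was lower with edgeR, against 2 higher and 3 lower with DESeq2, and the median was -0.077. Mitf, a MiT/TFE factor, rose by 1.04 on the log2 scale (FDR = 0.00844), from 40.5 ± 7.08 to 83.1 ± 20.5 CPM. Its relative Tfeb fell by 0.58 (FDR = 0.0456), from 32.9 ± 5.10 to 21.8 ± 5.12 CPM, and M6pr, a mannose 6-phosphate receptor, rose by 0.20 (FDR = 0.0380). Of 16 V-ATPase genes, whose pump acidifies lysosomes, 1 was higher with edgeR (Atp6v1b2, 0.25, FDR = 0.0385), while DESeq2 called 1 higher and 2 lower, and the median was -0.016. The calls of Fuca1 and Mitf stood in 13 of 13 fits without 1 mouse, those of Arsb in 8, Tfeb in 4, and M6pr and Atp6v1b2 in 3.

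**Figure D4:**
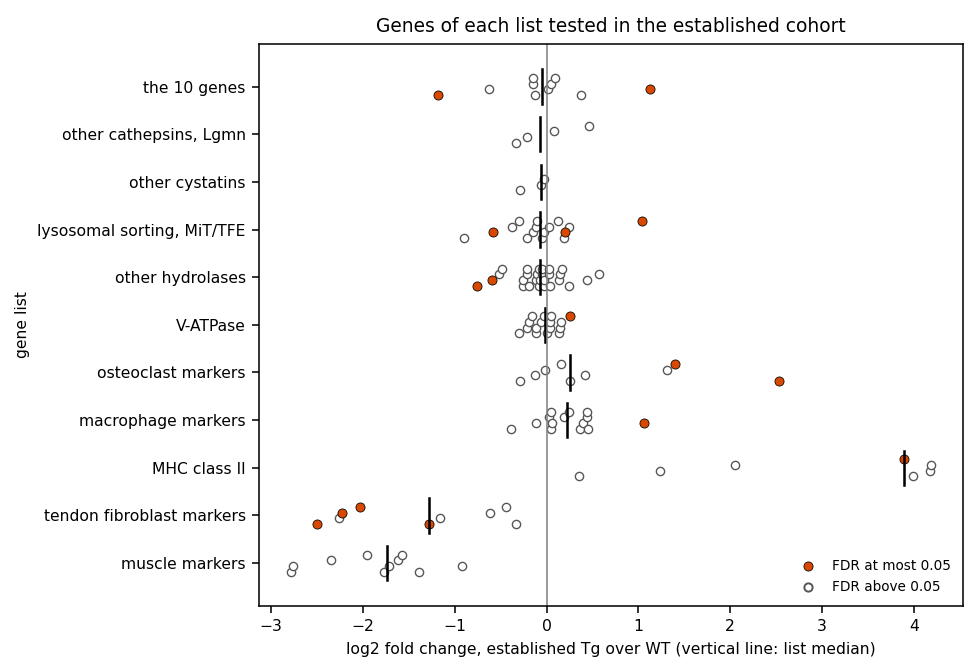
Log2 fold change of established Tg over WT (x) for every tested gene of each list (rows), filled where the FDR was at most 0.05, with a vertical line at the list median. Lysosomal lists centre near 0, with medians of -0.077 to -0.016, while MHC class II genes lie to the right (median 3.89) and tendon fibroblast markers to the left (-1.27).

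Because Ctsk is known from osteoclasts, 13 osteoclast markers were set beside it. With edgeR 9 were tested, of which 2 passed as higher in established Tg mice and 4 were higher at an unadjusted p under 0.05. DESeq2 tested all 13 and called 3 higher, Acp5, Atp6v0d2 and Mmp9. Acp5, a phosphatase secreted by osteoclasts, was at 1.45 ± 0.742 CPM in WT and 3.89 ± 2.37 CPM in Tg (log2 fold change 1.40, FDR = 0.0450, passing in 5 of 13 fits without 1 mouse). Atp6v0d2, a V-ATPase subunit needed for cell fusion, was at 0.714 ± 0.301 and 4.16 ± 2.91 CPM (2.53, FDR = 0.0153, in 13 of 13 fits). Dcstamp, also needed for fusion, had a log2 fold change of 1.32 (FDR = 0.109) at under 1 CPM on average in each group. Calcr and Ocstamp, which mark mature osteoclasts, had at most 0.300 and 0.779 CPM in any of the 28 mice. They had too few counts for the edgeR test, as had Oscar and Mmp9, with at most 0.312 and 4.3995 CPM. Mmp9, which DESeq2 called, averaged 0.0559 ± 0.0427 CPM in established WT and 0.947 ± 1.66 CPM in Tg mice. The other 6 markers did not pass and were at higher CPM, from Itgb3 at 12.1 in established WT and 16.1 in Tg mice to Nfatc1 at 182 and 148. Other cells express these 6 too, and which cells expressed any of the 13 markers was not measured. The summed list ranged from 238 to 350 CPM in WT and from 212 to 341 in Tg mice. Acp5 and Atp6v0d2 were highest in the established Tg male, at 8.95 and 9.53 CPM, and its Ctsk was at 55.4 CPM, close to the Tg median. The part of osteoclasts in the level of Ctsk was not tested.

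Macrophage markers were set beside the higher Ctss. Of 14 tested, 12 had a log2 fold change above 0 in the established cohort and 4 were higher at an unadjusted p under 0.05. Of all 15862 genes tested, 4213 were under that p in either direction. With edgeR 1 passed, Cd163, a hemoglobin scavenger receptor (1.07, FDR = 0.00465), from 35.5 ± 6.52 to 73.9 ± 11.4 CPM. DESeq2 called 2 higher, Mrc1 and Cd163. Log2 fold changes ran from -0.39 (Aif1) to 1.07 (Cd163), with Cd14 at -0.11 and Cd68, C1qa, C1qc and Fcgr1 between 0.028 and 0.059. The list median was 0.22, and its summed level ranged from 815 to 1320 CPM in WT and from 1017 to 1680 CPM in Tg mice. Of 7 MHC class II genes 6 were higher at an unadjusted p under 0.05, DESeq2 called 5 higher, and 1 passed with edgeR, Cd74, the invariant chain that cathepsin S trims (3.89, FDR = 0.0473, in 2 of 13 fits without 1 mouse), with 188 and 306 CPM in Tg replicates 6 and 7 and at most 20.4 CPM in the other Tg mice. Ctss exceeded the WT range in all 7 Tg mice, also in the 5 with MHC class II sums of at most 54.9 CPM. In the early cohort, where Ctsc was lower, macrophage markers summed to 1047 to 1620 CPM in WT and 936 to 1320 CPM in Tg mice, 1 of 14 had a log2 fold change above 0 and the median was -0.43. Of those 14, 0 passed with edgeR, 10 were lower at an unadjusted p under 0.05, and 2 were lower with DESeq2. Of all 15138 genes tested early, 917 were under that p in either direction. The early sums and median include the 4 lowest-numbered libraries, whose sums were 1404 to 1620 CPM in WT and 1320 CPM in Tg. The part of macrophage content in the levels of Ctss and Ctsc was not tested.

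Tendon fibroblast markers were set beside the lower Ctsk. In the established cohort 4 of 9 were lower and 0 higher (0 also with DESeq2 or at an unadjusted p under 0.05), with a median of -1.27. Among the 4 were Col1a1 (-2.50, FDR = 0.0356), Col1a2 (-2.23, FDR = 0.0367) and Tnmd (-2.03, FDR = 0.0386). These calls stood near the threshold, in 5, 4 and 4 of 13 fits without 1 mouse. Col1a1 fell from 73458 ± 20113 CPM in WT to 12955 ± 10509 CPM in Tg mice. Of 10 muscle markers 0 passed with edgeR or DESeq2 (2 at an unadjusted p under 0.05), and with a muscle score as covariate Ctsk (-1.17, FDR = 0.0382) and Ctss (1.21, FDR = 0.00378) both passed. The part of tendon fibroblast content in the level of Ctsk was not tested.

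Within groups, the 10 genes varied in several patterns. After the group mean was subtracted from log2 CPM, Pearson's r over the 28 libraries, which also share depth and tissue make-up, was 0.86 between Ctsa and Ctsz, 0.83 between Ctsb and Ctsk, and 0.82 between Ctsh and Ctsk. Ctsk and Ctss, though neighbours on the chromosome, had an r of 0.28. Ctsl went against Ctsa (-0.62) and Ctsz (-0.51), and Cst3 against Ctsz (-0.48). With the mean of the tendon fibroblast markers r was 0.75 for Ctsb, 0.71 for Ctsz, 0.62 for Ctsa, 0.59 for Ctsh and 0.55 for Ctsk. It was 0.45 for Ctsc and 0.35 for Ctsd, but -0.30 for Ctss, -0.30 for Ctsl and -0.39 for Cst3. With the macrophage markers r was 0.72 for Ctsc, 0.66 for Ctsa and 0.62 for Ctss, against 0.25 for Ctsk and 0.018 for Cst3.

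**Figure D5:**
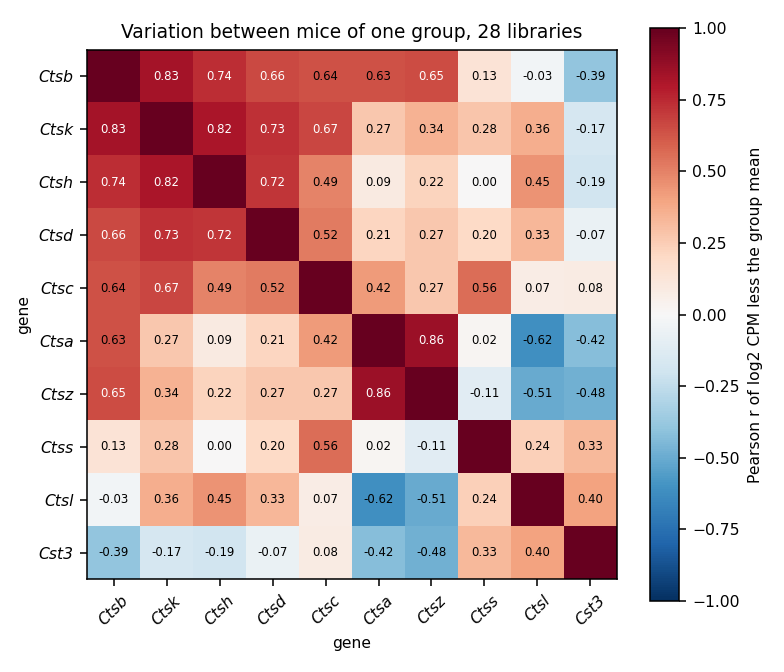
Pearson's r between each pair of the 10 genes (rows and columns), from log2 CPM less the mean of each of the 4 groups, over 28 libraries. The highest value is that of Ctsa and Ctsz at 0.86 and the lowest that of Ctsa and Ctsl at -0.62.

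Among 11415 genes with a mean of at least 5 CPM, those most like each gene by this r were of different kinds. For Ctsk they were Vcam1 (0.89), which encodes a cell adhesion molecule, Ppic (0.88), a cyclophilin, and Ecscr (0.86). For Ctss they were Cd53 (0.85), a leukocyte tetraspanin, Evi2a (0.80) and Mrc1 (0.80), the macrophage mannose receptor. For Ctsc they were the macrophage genes Adgre1 (0.87) and Lyz2 (0.83), and Cd84 (0.83), a leukocyte receptor. For Cst3 they were Dazap2 (0.82), Osbpl9 (0.82) and Lancl1 (0.81). These values describe likeness between mice of the same group, and Mrc1, Adgre1 and Lyz2 also belong to the macrophage list above.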

How the data were processed

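RNA was sequenced from tail tendon fascicles of 28 mice, 1 library each, after depletion of ribosomal RNA. Per the labels and the study's methods, reads were aligned by the authors to GRCm39 (STAR, GENCODE genes) and assigned to genes with featureCounts. The deposited files hold the resulting raw counts without scaling or filtering. The strand setting is not given in the sources used here. Groups came from the labels. Gene names, positions and exon lengths were taken from a later GENCODE release on the same assembly, which named 25505 of 25719 identifiers, and promoters from RefSeq.

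Counts were scaled by TMM and tested with the quasi-likelihood test of edgeR 4.0.16 in R 4.3.3, after filterByExpr (minimum count 10, minimum total 15), and p-values were adjusted by Benjamini-Hochberg across the whole table. Genotypes were compared within each cohort without covariates, and 1 fit of the 4 groups gave the interaction and stage contrasts. CPM per mouse came from 1 TMM scaling of the 28 libraries, log2 CPM had a prior count of 2, and intervals are 95%. P-values measure the spread between these mice.

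The genes, lists and tests were chosen with earlier results of these data known. All 10 genes were named. From each other list up to 3 genes with the lowest FDR among those past 0.05 in the established cohort were named, with 5 osteoclast genes and the ends of the range of untested or unpassed lists whatever their value. For Ctsk, Ctss, Ctsc and Cst3 the 3 genes with the highest r were named. Markers of erythroid cells, keratinocytes, osteoblasts and endothelium were also read, and of 4, 2, 0 and 5 genes tested with edgeR in the established cohort 0 passed (3 erythroid genes had an unadjusted p under 0.05). DESeq2 called 4 erythroid genes higher and 1 osteoblast gene (Alpl) lower.

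Replicate numbers recur in each genotype. In the early cohort same-numbered mice deviated together in 7 of 7 pairs (r 0.216 to 0.504, each above 0.1), so the numbers may pair them. However, only 1 of 7 WT mice was closest to its own number, so this pairing is uncertain. The main fits did not use it, and the replicate block, run as an alternative, changed no early call among these genes. Alternatives were DESeq2 1.42.0, RLE scaling, no filter, a replicate block, a muscle score covariate, removal of muscle, erythroid and keratinocyte genes, 1 fit of all mice, females only, and each library left out. The fits were checked on simulated counts. Library totals of 9645598 to 66894396 counts put at least 194 counts behind the level of each of the 10 genes in each mouse. Figures were drawn with matplotlib 3.10.9.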

Additional observations from a re-analysis of the deposited data

Results flagged for a closer look

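Single mice stood apart in 5 of the 40 sets formed by 10 genes and 4 groups, where chance flags about 1 in 20 sets. In early Tg mice, replicate 1 had the lowest Ctsh (63.9 CPM, next 105) and the highest Ctss (71.8 CPM, next 56.3), and replicate 6 had the highest Ctsk (479 CPM, next 346). Replicate 1 is among the 4 libraries with the lowest numbers. In established Tg mice, the male, replicate 5, had the highest Ctsl (340 CPM, next 211), and replicate 7 had the highest Ctss (174 CPM, next 106). Without replicate 7 the established log2 fold change of Ctss was 0.90 and still passed.

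The genotype difference of Ctsk changed between cohorts by -1.36 and that of Ctss by 1.43 on the log2 scale, by the interaction term, with sex changing along with stage.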

How the results depend on the processing

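The count of genes called in the established cohort was 2 in the main analysis, 2 with DESeq2, RLE scaling, the muscle covariate, the removal of muscle, erythroid and keratinocyte genes or all mice in 1 fit, 3 with the replicate block (Ctsh added), 1 without a filter (Ctss alone, with Ctsk at an FDR of 0.0508), 0 in females only (4 with an unadjusted p under 0.05 by edgeR; DESeq2 was not run there), and 0 to 2 with 1 mouse left out. Without the 4 lowest-numbered libraries the count was 0 early (1 with an unadjusted p under 0.05), 1 for the interaction and 5 for the WT stage contrast (Ctsb at -0.53 and Ctsd at -0.37 added), and the WT stage count was 5 with DESeq2 (Ctsb and Ctss added). With 1 library left out, the WT stage count was 2 to 5, against 3 with all libraries, and 5 without established Tg replicate 5 or 7, and the Tg stage count was 9. The early count of 1, the interaction count of 3 to 4 and the WT stage count of 3 include Ctsc. Its early value entered the choice of genes, so nothing is read from these counts. The cause of these moves was not tested.

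Signs turned for some values that did not pass a threshold. With the replicate block the established values of Ctsa (-0.065), Ctsb (-0.092) and Ctsc (-0.062) were below 0, and without the 2 established males the interaction of Ctsa was 0.054. Without the 4 lowest-numbered libraries the early values of Ctsh (-0.0082) and Ctsk (-0.040), the interaction of Ctsl (0.11) and the WT stage value of Cst3 (-0.039) turned. Leaving out 1 library gave -0.066 to 0.055 for the interaction of Ctsa, -0.21 to 0.010 for that of Ctsb and -0.069 to 0.22 for the WT stage value of Cst3. It gave -0.050 to 0.082 for Ctsa, -0.052 to 0.18 for Ctsb and -0.059 to 0.17 for Ctsc in the established cohort, and -0.033 to 0.073 for Ctsa and -0.12 to 0.097 for Ctsl in the early cohort.

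Over all genes the established count of 1032 became 2177 with DESeq2, 1700 with the muscle covariate, 1663 with all mice in 1 fit and 560 in females only, and the early count of 6 became 25 with DESeq2 and 11 with the block. The interaction count of 1195 became 2000 with the block, 725 without the 2 established males and 150 without the 4 libraries, and the WT stage count of 935 became 1561 with DESeq2 and 3113 without the 4 libraries. In the established cohort not every pair of same-numbered mice deviated together (r -0.352 to 0.783 over 6 pairs, median 0.397, 3 of 6 WT mice closest to their own number), so the numbers were not taken to pair them. Under the replicate block Ctsk was at -1.57 and Ctss at 0.88. No scaling moved the median of all genes by over 0.1.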
